A study of Mus musculus with 12 samples.

Results

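LSK cells labelled as lacking both p300 and Tet2 (p300KO_TET2KO, 3 libraries) were compared with WT LSK cells (3 libraries) across every expressed gene. These are 6 of the 12 RNA-seq libraries of the series, and expressed means the 17842 of 46517 genes that passed a filter on low counts. LSK cells are the lineage-negative, Sca-1-positive, c-Kit-positive bone marrow fraction with the hematopoietic stem cells and multipotent progenitors. By the study's methods all mice carried floxed Ep300 alleles (Ep300 fl/fl), p300KO_TET2KO mice also carried Mx1-Cre and Tet2-/-, P300KO mice Mx1-Cre, TET2KO mice Tet2-/- without Cre, and WT mice neither. The short design text deposited with the data reads as if every genotype carried Mx1-Cre, so the sources differ on the Cre status of WT. If WT lacked Cre, the transgene and the loss of p300 cannot be told apart. Mx1-Cre is driven by an interferon-inducible promoter that poly(I:C) switches on, and it is active beyond blood cells. Mice of all groups received poly(I:C), and LSK cells were sorted 2 weeks later at 8 to 10 weeks of age. The study describes the libraries as biological replicates, and whether animals were pooled is not given in the sources used here.

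Histone acetyltransferase p300, encoded by Ep300, acts as a coactivator at enhancers and promoters and has a close paralog, CBP. TET2 oxidises 5-methylcytosine, a first step of DNA demethylation, and is among the genes most often mutated in human myelodysplastic syndrome. In blood, loss of TET2 is known to raise stem cell self-renewal and myeloid output, and p300 and CBP are needed for normal blood formation. Lymphoid priming in multipotent progenitors depends on transcription factors that recruit such coactivators.

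The libraries were not matched in sex-linked RNA or depth. Total counts ran from 18773903 to 67109621 in the libraries labelled p300KO_TET2KO and from 18838681 to 79573664 in WT. The p300KO_TET2KO replicates 1 and 3 held 6452 and 8103 CPM of Xist, the RNA of the inactive X chromosome, and Y-linked genes gave no more than 0.0522 CPM there. Replicate 2 and the WT libraries held 257 to 278 CPM of Y-linked RNA and at most 3.01 CPM of Xist, and TET2KO replicate 1 held both kinds (3279 CPM of Xist and 177 CPM of Y-linked RNA). Of 575 tested genes on the X chromosome, 41 were called higher (7.13%) and 15 lower (2.61%), against 3.51% and 4.92% of all tested genes. The mitochondrially encoded share of counts was 0.503% for p300KO_TET2KO replicate 2, lower than the 1.18% to 1.53% of every other library. Of the genes of the LSK gate, Kit (log2FC 0.27, SE 0.13, adjusted p = 0.246), Ly6a, which encodes Sca-1 (log2FC -0.44, SE 0.23, adjusted p = 0.322), and Cd34 (log2FC -0.07, SE 0.10, adjusted p = 0.773) did not pass the test. Levels are in CPM, the counts of a gene scaled to the size of its library. The log2 fold change (log2FC) is p300KO_TET2KO over WT unless another group is named, and SE is its standard error. Genes were called where edgeR's quasi-likelihood test gave a Benjamini-Hochberg adjusted p under 0.05 over all 17842 genes.

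Ep300 (ENSMUSG00000055024.11, chromosome 15, 81585351 to 81652077 of mm10) checks the label. Its level was 166, 176 and 179 CPM in the libraries labelled p300KO_TET2KO, 176, 233 and 192 CPM in P300KO, 349.6, 346 and 313 CPM in TET2KO and 307, 339.7 and 285 CPM in WT. The libraries labelled p300KO_TET2KO lay below every WT library and overlapped with P300KO, and the RNA fell without being lost (log2FC -0.84, SE 0.11, adjusted p = 4.65e-04). Crebbp, which encodes CBP, was at 385, 319 and 385 CPM in the libraries labelled p300KO_TET2KO, against 372, 381 and 360.0 CPM in WT, with overlapping groups (log2FC -0.03, SE 0.10, adjusted p = 0.910).

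Tet2 (ENSMUSG00000040943.11, chromosome 3, 133463679 to 133545139) went against the label. It was at 128, 101 and 145 CPM in the libraries labelled p300KO_TET2KO, 139, 181 and 168 CPM in P300KO, 56.6, 38.6 and 48.1 CPM in TET2KO and 136, 139 and 119.9 CPM in WT. The 3 TET2KO libraries stood below every other library, whereas the libraries labelled p300KO_TET2KO overlapped with WT (log2FC -0.08, SE 0.15, adjusted p = 0.834). The genotype of these libraries at Tet2 cannot be read from Tet2 RNA, and they are named by their label in what follows. For some other genes of chromosome 3 called in TET2KO against WT, the values of both comparisons stand side by side here. Both comparisons share the WT libraries. Rpl34, a ribosomal protein gene, had a log2 fold change of -1.17 in p300KO_TET2KO and -1.04 in TET2KO, and Cisd2, an iron-sulfur protein gene, of -0.77 in p300KO_TET2KO and -0.70 in TET2KO. Values for the B cell scaffold gene Bank1 were -2.41 in p300KO_TET2KO and -2.66 in TET2KO, for the endothelial sialomucin gene Emcn -1.02 in p300KO_TET2KO and -1.32 in TET2KO, and for the tropomodulin gene Tmod4 2.07 in p300KO_TET2KO and 2.17 in TET2KO. The calponin gene Cnn3, described with the lymphoid genes, had -4.93 in p300KO_TET2KO and -1.56 in TET2KO. In P300KO against WT the values were -2.33 for Cnn3, -1.44 for Bank1, -0.34 for Emcn, 0.28 for Rpl34, -0.007 for Cisd2 and 0.18 for Tmod4. Of 74 tested genes within 5 Mb of Tet2, 2 were called higher (2.70%) and 12 lower (16.2%) in p300KO_TET2KO, against 3.51% and 4.92% of all tested genes, and 5 were called in TET2KO (6.76%, against 0.633%).

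In all, 1504 genes were called between p300KO_TET2KO and WT, 8.43% of those tested. The libraries labelled p300KO_TET2KO had higher RNA of 627 genes (3.51%), 346 of them by at least 2-fold, and lower RNA of 877 genes (4.92%), 455 by at least 2-fold. The median log2 fold change of all genes was 0.02. The 3 libraries of each group did not overlap for 1489 of the called genes (99.0%), and for 27.5% of all tested genes. In a fit on the libraries with Y-linked and no Xist RNA, which keeps p300KO_TET2KO replicate 2 alone, 256 genes were higher and 377 lower. The number higher was 362 without p300KO_TET2KO replicate 3, 314 without WT replicate 1 and 319 without WT replicate 2. The number lower was 578, 572 and 553 without the same libraries.

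**Figure D1:**
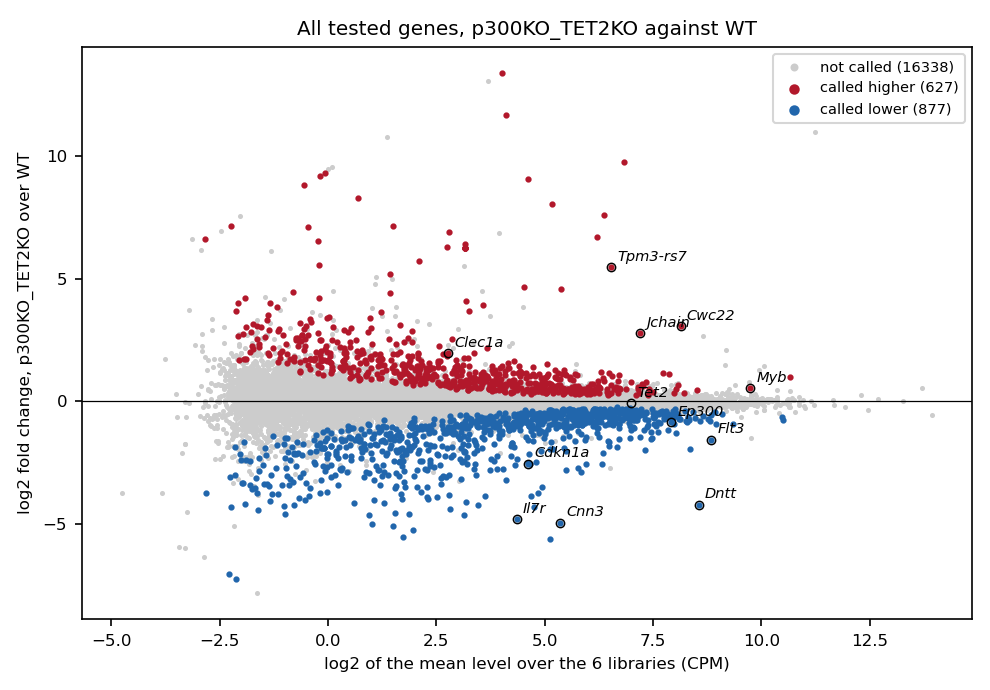
Log2 fold change of p300KO_TET2KO over WT (vertical axis) against the log2 of the mean level in CPM (horizontal axis) for the 17842 tested genes, with called genes in colour. The 627 genes higher and 877 lower lie on either side of 0, and Cnn3 (log2FC -4.93) and Il7r (log2FC -4.80) are among the lowest named.

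Genes of early lymphoid development had the highest share of called members among the 36 gene lists. Of 43 tested members of the list, 30 were called lower (69.8%, against 4.92% of all genes) and 1 higher, with a median log2 fold change of -2.08. Each of the 6 fits that left out 1 library called at least 23 of them lower, and the fit on libraries without Xist RNA called 19. Il7r, which encodes the interleukin-7 receptor alpha chain that lymphoid progenitors need, was at 1.51, 1.33 and 1.43 CPM in the libraries labelled p300KO_TET2KO, against 35.7, 39.9 and 42.6 CPM in WT. Every library labelled p300KO_TET2KO was below every WT library, 27.9 times lower on average (log2FC -4.80, SE 0.28, adjusted p = 1.23e-06). Dntt, the terminal transferase that adds bases at V(D)J joints, was at 18.8, 47.6 and 49.1 CPM in the libraries labelled p300KO_TET2KO, against 585, 642 and 911 CPM in WT, and the groups were far apart (log2FC -4.20, SE 0.45, adjusted p = 1.43e-04). The recombinase genes fell as well. Rag1 was at 1.51, 5.1 and 2.74 CPM in the libraries labelled p300KO_TET2KO, against 47.6, 43.3 and 53.2 CPM in WT (log2FC -3.86, SE 0.50, adjusted p = 5.16e-04). Rag2 was at 0.313, 0.517 and 1.23 CPM in the libraries labelled p300KO_TET2KO, against 15.3, 18.8 and 16.8 CPM in WT (log2FC -4.64, SE 0.45, adjusted p = 7.79e-05).

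Promoter sequences of Il7r, Dntt and Rag2 are shown because these genes, on separate chromosomes, had among the lowest fold changes. They come from RefSeq on GRCm38.p6, 250 bases before to 50 after the start, 5′ to 3′ on the gene's strand, at chr15:9529827-9530126 (minus strand, Il7r), chr19:41029025-41029324 (plus, Dntt) and chr2:101624462-101624761 (plus, Rag2). Capitals mark matches on either strand to the motif AGATAA for GATA factors, GAGGAA for PU.1, TGTGGT for RUNX factors and TAACNG for Myb.
Il7r: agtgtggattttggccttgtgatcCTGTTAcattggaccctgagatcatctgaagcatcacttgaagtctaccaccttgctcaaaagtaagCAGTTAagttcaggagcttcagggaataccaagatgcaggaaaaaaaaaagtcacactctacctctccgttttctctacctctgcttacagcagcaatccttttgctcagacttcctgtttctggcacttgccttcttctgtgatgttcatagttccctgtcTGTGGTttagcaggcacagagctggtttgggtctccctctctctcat
Dntt: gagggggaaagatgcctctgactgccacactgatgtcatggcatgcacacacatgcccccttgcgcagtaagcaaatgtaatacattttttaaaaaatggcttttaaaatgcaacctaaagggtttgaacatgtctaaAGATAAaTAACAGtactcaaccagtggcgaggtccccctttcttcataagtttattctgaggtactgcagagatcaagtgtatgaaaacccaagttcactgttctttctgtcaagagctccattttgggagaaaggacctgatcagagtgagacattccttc
Rag2: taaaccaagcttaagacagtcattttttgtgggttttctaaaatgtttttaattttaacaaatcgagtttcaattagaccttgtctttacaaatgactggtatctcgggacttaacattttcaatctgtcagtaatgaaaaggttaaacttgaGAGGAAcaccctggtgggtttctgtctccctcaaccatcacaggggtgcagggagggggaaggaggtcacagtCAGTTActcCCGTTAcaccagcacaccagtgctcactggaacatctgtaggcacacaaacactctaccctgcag
The Il7r window held 2 Myb and 1 RUNX match, the Dntt window 1 GATA and 1 Myb match, and the Rag2 window 2 Myb and 1 PU.1 match. Of the 30 early lymphoid genes called lower, 24 had a window. A Myb match stood in 37.5% of these and in 23.2% of the windows of all 27025 genes with one, a PU.1 match in 45.8% and 28.3%, a RUNX match in 29.2% and 16.9%, and a GATA match in 8.33% and 11.4%. An E-box (CANNTG, which can overlap a Myb match) stood in 79.2% and 72.1%. The interferon response element (GAAANNGAA) stood in 4.17% and 8.57%, an NF-kB match (GGNNTTTCC) in 4.17% and 5.72%, and a cyclic AMP response element (TGACGTCA) in 0% and 1.88%. The 27025 genes include many that were not tested here, as 10974 of the tested genes had a window. The shares describe letters in a window and were not tested. The same check over all called genes is void because fewer than 80% of them (66.7% of the lower, 68.1% of the higher) had a window.

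Transcription factors of lymphoid fate were lower in the libraries labelled p300KO_TET2KO too. Ebf1, which specifies B cells, was at 0.418, 2.01 and 0.654 CPM in the libraries labelled p300KO_TET2KO, against 27.5, 18.4 and 17.4 CPM in WT (log2FC -4.20, SE 0.76, adjusted p = 0.00433). Pax5, which commits cells to the B lineage, was at 0.261, 3.21 and 0.899 CPM in the libraries labelled p300KO_TET2KO, against 32.5, 19.8 and 16.9 CPM in WT (log2FC -3.84, SE 0.82, adjusted p = 0.0116), and the call was lost without p300KO_TET2KO replicate 3 (adjusted p = 0.0576). The groups did not overlap for either factor, although p300KO_TET2KO replicate 2 held the most RNA of its group. Tcf7, a Wnt effector of early T cells, was at 2.92, 2.5 and 2.78 CPM in the libraries labelled p300KO_TET2KO, against 14.6, 18.2 and 14.2 CPM in WT (log2FC -2.53, SE 0.25, adjusted p = 8.02e-05). Notch1, the receptor for T cell fate, was at 104, 148 and 155 CPM in the libraries labelled p300KO_TET2KO, against 472, 523 and 552 CPM in WT, without overlap (log2FC -1.93, SE 0.19, adjusted p = 7.79e-05). Flt3, the cytokine receptor of lymphoid-primed progenitors, was at 199, 267 and 236 CPM in the libraries labelled p300KO_TET2KO, against 676, 703 and 687 CPM in WT (log2FC -1.56, SE 0.19, adjusted p = 3.44e-04). Ikzf1, Satb1, Mef2c and Bcl11a, which act earlier in priming, were called lower with log2FC of -0.81, -1.27, -0.84 and -0.72. The lowest value of the list belonged to Cnn3, an actin-binding calponin on chromosome 3, at 2.14, 2.91 and 2.49 CPM in the libraries labelled p300KO_TET2KO, against 66.9, 68 and 102 CPM in WT (log2FC -4.93, SE 0.22, adjusted p = 9.99e-08). An antisense transcript lies within Cnn3, and the strand setting of the counting is not given in the sources used here. In bulk RNA, fewer cells of a type and less RNA per cell cannot be told apart. The members called in the single knockouts numbered 0 higher and 24 lower in P300KO and 0 higher and 1 lower in TET2KO. Over all 17842 tested genes, 509 were called lower in P300KO and 27 in TET2KO. The median log2FC of the list was -1.33 in P300KO and -0.54 in TET2KO. The list was chosen with results of these data known.

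**Figure D2:**
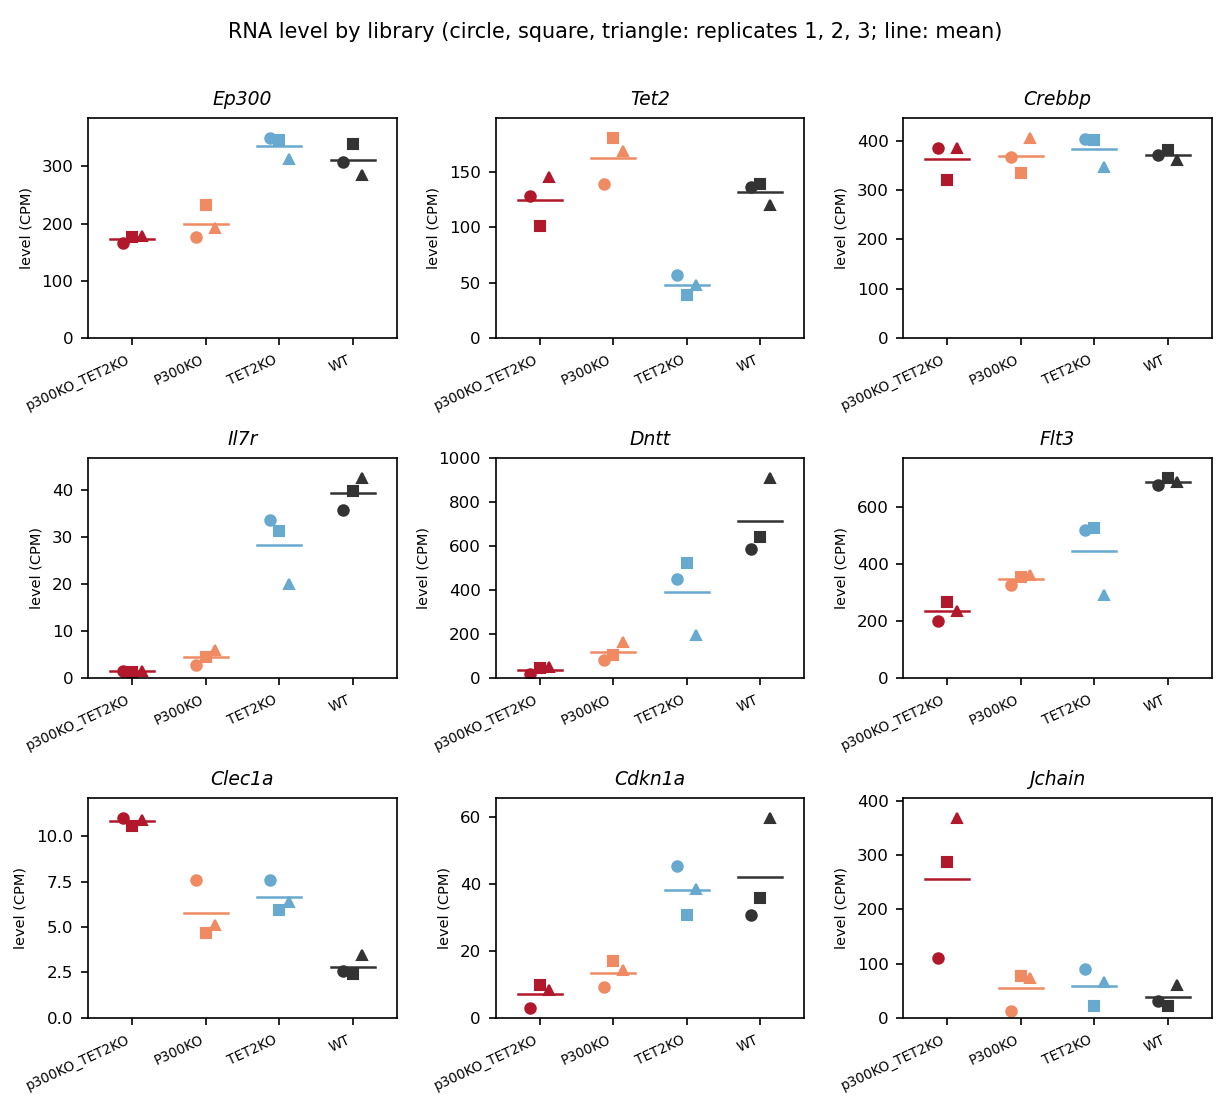
Level in CPM of 9 genes in each library (vertical axes, from 0), with p300KO_TET2KO at the left, then P300KO, TET2KO and WT. Circles, squares and triangles are replicates 1, 2 and 3, and lines are group means. Ep300 and the lymphoid genes Il7r, Dntt and Flt3 lie below WT in all 3 p300KO_TET2KO libraries, Tet2 does not, and Clec1a and Jchain lie above.

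Some RNA of the late B lineage went the other way. Jchain, the joining chain of secreted IgM and IgA, was at 110.3, 287 and 369 CPM in the libraries labelled p300KO_TET2KO, against 31.2, 21.6 and 60.3 CPM in WT. All 3 libraries labelled p300KO_TET2KO were above WT, but they also differed among themselves (log2FC 2.78, SE 0.69, adjusted p = 0.0252), and the call was lost without p300KO_TET2KO replicate 2 or 3 or WT replicate 1 or 2 (adjusted p up to 0.108). Prdm1, which drives plasma cell differentiation, was at 2.25, 3.22 and 7.07 CPM in the libraries labelled p300KO_TET2KO, against 1.33, 1.13 and 1.39 CPM in WT (log2FC 1.70, SE 0.44, adjusted p = 0.0297). The immunoglobulin kappa constant gene Igkc was at 376, 828 and 878 CPM in the libraries labelled p300KO_TET2KO, against 74.5, 49.7 and 204 CPM in WT and narrowly missed the threshold (log2FC 2.67, SE 0.77, adjusted p = 0.0521). Summed over 86 tested immunoglobulin genes the level was 1370, 3547 and 3679 CPM in the libraries labelled p300KO_TET2KO, against 704, 597 and 1274 CPM in WT, without overlap. Ighd, the IgD heavy chain of B cell surface receptors, was lower instead, at 0.992, 1.43 and 3.64 CPM in the libraries labelled p300KO_TET2KO, against 6.48, 7.52 and 9.59 CPM in WT (log2FC -1.96, SE 0.40, adjusted p = 0.00806). Among 21 tested markers of mature B and plasma cells, 2 were called higher (Jchain and Prdm1, 9.52%) and 5 lower (23.8%). Of all genes, 3.51% were called higher and 4.92% lower. The calls higher numbered 1 without p300KO_TET2KO replicate 2, 0 without p300KO_TET2KO replicate 3, 0 without WT replicate 1 and 0 without WT replicate 2, and the calls lower 3 without p300KO_TET2KO replicate 1, 3 without p300KO_TET2KO replicate 3, 2 without WT replicate 1 and 3 without WT replicate 2. The summed level of the 21 was 1366 to 3597 CPM in the libraries labelled p300KO_TET2KO, against 843 to 1403 CPM in WT, with overlap.

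Markers of T and NK cells, of end-stage monocytes, macrophages and neutrophils, and of endothelium and stroma had no calls higher. For mature T and NK cells there were 0 higher (0%) and 6 lower (35.3%) of 17 tested members, with a median log2FC of -1.32 and a summed level of 63.1 to 79.9 CPM in the libraries labelled p300KO_TET2KO, against 96 to 131 CPM in WT. Defining T cell genes Cd3e, Cd3g, Cd8a, Cd8b1 and Trac had at most 13 counts in any library and were not tested. Trbc1, a T cell receptor beta constant gene whose reads can be shared with its near-identical copy Trbc2, was at 0.679, 0.753 and 0.572 CPM in the libraries labelled p300KO_TET2KO, against 4.73, 6.14 and 5.8 CPM in WT (log2FC -3.03, SE 0.28, adjusted p = 7.23e-05). Cd6, a T cell surface receptor, was at 0.261, 0.487 and 0.327 CPM in the libraries labelled p300KO_TET2KO, against 3.88, 4.48 and 10.04 CPM in WT (log2FC -3.98, SE 0.52, adjusted p = 5.16e-04), again without overlap. Monocyte, macrophage and neutrophil end-stage markers had 0 higher (0%) and 2 lower (12.5%) of 16 tested members and a summed level of 50.4 to 54.2 CPM in the libraries labelled p300KO_TET2KO, against 69.7 to 76.4 CPM in WT, and Ly6g, Marco, Mmp9 and Retnlg had at most 36 counts in any library. The called members were Cd163, the hemoglobin scavenger receptor (log2FC -1.14, adjusted p = 6.90e-04), and Hmox1, heme oxygenase 1 (log2FC -1.82, adjusted p = 0.00403). Endothelial and stromal markers had 0 higher (0%) and 2 lower (15.4%) of 13 tested members and a summed level of 179.8 to 201 CPM in the libraries labelled p300KO_TET2KO, against 252 to 269 CPM in WT. The called members were Pecam1, an adhesion molecule that stem cells share with endothelium (log2FC -0.90, adjusted p = 1.39e-04), and Emcn (log2FC -1.02, adjusted p = 0.00883). The part of these cell types in the results was not tested.

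Mast cell, basophil and dendritic cell markers had 0 higher (0%) and 8 lower (36.4%) of 22 tested members and a median log2FC of -0.65. Mcpt8, a basophil protease, was at 6.16, 7.34 and 8.66 CPM in the libraries labelled p300KO_TET2KO, against 27, 45.6 and 56.2 CPM in WT, and the groups were apart (log2FC -2.53, SE 0.37, adjusted p = 0.00108). Cox6a2, a respiratory chain subunit abundant in plasmacytoid dendritic cells, was at 0.157, 0.428 and 0.531 CPM in the libraries labelled p300KO_TET2KO, against 3.31, 3.21 and 6.13 CPM in WT (log2FC -3.41, SE 0.44, adjusted p = 5.16e-04). Lower calls were also made for the chemokine receptor Ccr9 (log2FC -2.74, adjusted p = 8.25e-04), the basophil protease Prss34 (log2FC -1.998, adjusted p = 0.0112) and the IgE receptor beta chain Ms4a2 (log2FC -1.54, adjusted p = 0.00728). Flt3 and Ccr9 are in the lymphoid list as well. The summed level of the list was 706 to 878 CPM in the libraries labelled p300KO_TET2KO, against 1294 to 1450.0 CPM in WT, without overlap.

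Of the genes of long-term stem cells, more were called higher than lower, with 8 higher (21.1%) and 1 lower (2.63%) of 38 tested members, against 3.51% and 4.92% of all genes, and a median log2FC of 0.25. The calls higher numbered 5 without p300KO_TET2KO replicate 3, 4 without WT replicate 1 and 5 without WT replicate 2. With a sex covariate they numbered 7. Clec1a, a C-type lectin receptor, was at 11, 10.5 and 10.9 CPM in the libraries labelled p300KO_TET2KO, against 2.56, 2.43 and 3.46 CPM in WT, and its libraries agreed closely within each group (log2FC 1.96, SE 0.22, adjusted p = 1.95e-04). Tek, the angiopoietin receptor Tie2 of quiescent stem cells, was at 32.3, 27.1 and 27.8 CPM in the libraries labelled p300KO_TET2KO, against 14, 14.5 and 13.3 CPM in WT (log2FC 1.06, SE 0.20, adjusted p = 0.00535). Tie1, its relative, was at 113, 166 and 118 CPM in the libraries labelled p300KO_TET2KO, against 75.2, 72.7 and 77.6 CPM in WT (log2FC 0.81, SE 0.15, adjusted p = 0.00560). Neo1, a netrin and repulsive guidance receptor of stem cells, was called higher as well (log2FC 1.76, adjusted p = 0.00969). Slamf1, the CD150 marker of long-term stem cells, was the 1 member called lower, at 1.31, 1.43 and 1.72 CPM in the libraries labelled p300KO_TET2KO, against 4.36, 3.71 and 3.23 CPM in WT (log2FC -1.35, SE 0.26, adjusted p = 0.00622). Stem cell markers that were not called include Procr, the endothelial protein C receptor (log2FC 0.24, adjusted p = 0.712), and Hlf, a transcription factor of self-renewal (log2FC 0.17, adjusted p = 0.654).

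The Hoxa, Hoxb, Meis and Pbx list, which also holds Myb, had 6 higher (28.6%) and 0 lower (0%) of 21 tested members with a median log2FC of 0.10. Part of it was picked by the study on these cells, so its direction is no independent evidence. Pbx3, a homeodomain partner of Hox proteins, was at 24.2, 18.7 and 25 CPM in the libraries labelled p300KO_TET2KO, against 9.14, 9.13 and 8.09 CPM in WT (log2FC 1.36, SE 0.13, adjusted p = 7.79e-05). Myb, which progenitors need to proliferate, was at 1008, 973 and 1051 CPM in the libraries labelled p300KO_TET2KO, against 644, 694 and 755 CPM in WT (log2FC 0.54, SE 0.10, adjusted p = 0.00574), with log2 fold changes of 0.59 for P300KO (adjusted p = 0.00761) and 0.12 for TET2KO (adjusted p = 0.665). Neither of these 2 genes had overlapping groups. Hoxb5, a homeobox gene of long-term stem cells, was at 2.04, 3.71 and 3.19 CPM in the libraries labelled p300KO_TET2KO, against 1.63, 1.13 and 1.39 CPM in WT (log2FC 1.11, SE 0.29, adjusted p = 0.0311), and the call was lost without p300KO_TET2KO replicate 2 or 3 or WT replicate 1, 2 or 3 (adjusted p up to 0.132). Hoxb6 (log2FC 1.42, adjusted p = 0.0270) and Hoxb3 (log2FC 0.65, adjusted p = 0.0380) were called, and Hoxb4 (log2FC 0.53, adjusted p = 0.0819) and Hoxb2 (log2FC 0.72, adjusted p = 0.219) were not. For Hoxb6 the call was lost without p300KO_TET2KO replicate 2 or WT replicate 2 or 3 (adjusted p up to 0.121), and for Hoxb3 the call was lost without any 1 library (adjusted p up to 0.142). The calls higher in the list numbered 3 without p300KO_TET2KO replicate 2, 3 without p300KO_TET2KO replicate 3, 3 without WT replicate 1, 2 without WT replicate 2 and 2 without WT replicate 3. With a sex covariate they numbered 3.

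Multipotent progenitor markers had 1 higher (6.25%) and 7 lower (43.8%) of 16 tested members. Besides Flt3 and Satb1, Lsp1, an actin-binding protein of leukocytes, was at 68, 78.3 and 72 CPM in the libraries labelled p300KO_TET2KO, against 136, 143 and 132 CPM in WT (log2FC -0.91, SE 0.12, adjusted p = 5.57e-04), and Dach1, a transcriptional regulator, was the 1 called higher (log2FC 0.69, adjusted p = 0.00348). In the megakaryocyte and platelet list the counts were 5 higher (17.2%) and 1 lower (3.45%) of 29 tested members, with a median log2FC of 0.13. Itga2b, the integrin CD41, was at 159, 192 and 133 CPM in the libraries labelled p300KO_TET2KO, against 90.1, 89.8 and 99.8 CPM in WT (log2FC 0.79, SE 0.12, adjusted p = 0.00147), and the tetraspanin Cd9 rose as well (log2FC 0.58, adjusted p = 0.00508). The platelet adhesion genes Itgb3 (log2FC 1.101, adjusted p = 0.0236), Selp (log2FC 1.51, adjusted p = 0.0354) and Gp5 (log2FC 0.84, adjusted p = 0.0356) were the others called higher. In the single knockouts, Itga2b had log2 fold changes of 1.07 for P300KO (adjusted p = 7.09e-04) and 0.27 for TET2KO (adjusted p = 0.372). The calls higher in the list numbered 2 without p300KO_TET2KO replicate 1, 3 without p300KO_TET2KO replicate 2, 2 without WT replicate 1 and 2 without WT replicate 2. With a sex covariate they numbered 2. Erythroid genes had 1 higher (3.23%) and 1 lower (3.23%) of 31 tested members, namely the stem cell and erythroid factor Tal1 (log2FC 0.62, adjusted p = 0.00967) and the protease Ctse (log2FC -1.36, adjusted p = 0.0102).

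The share of granulocyte-monocyte genes called was near that of all genes, with 2 higher (5.71%) and 2 lower (5.71%) of 35 tested members and a median log2FC of 0.04. Gfi1, a repressor that restrains stem cell proliferation and directs granulocytes, was at 13.2, 17.7 and 18.4 CPM in the libraries labelled p300KO_TET2KO, against 32.1, 38 and 33.7 CPM in WT, without overlap (log2FC -1.07, SE 0.13, adjusted p = 3.23e-04). In the single knockouts its log2 fold changes were -0.12 for P300KO (adjusted p = 0.710) and -0.12 for TET2KO (adjusted p = 0.729). The myeloid factor genes Spi1 (log2FC 0.04, adjusted p = 0.861) and Cebpa (log2FC -0.05, adjusted p = 0.920) and the granule gene Mpo (log2FC 0.41, adjusted p = 0.435) did not pass the test. The 2 called higher were Lcn2, a secreted iron-carrier-binding protein of granulocytes, and Cebpe, a factor of late granulocytes. Lcn2 was at 0.679, 0.842 and 1.55 CPM in the libraries labelled p300KO_TET2KO, against 0.126, 0.194 and 0.223 CPM in WT (log2FC 2.58, SE 0.57, adjusted p = 0.0145), and the call was lost without p300KO_TET2KO replicate 3 or WT replicate 1 or 2 (adjusted p up to 0.0885). For Cebpe (log2FC 1.95, adjusted p = 0.0313) the call was lost without p300KO_TET2KO replicate 2 or 3 or WT replicate 1 or 2 (adjusted p up to 0.133). The calls higher in the list numbered 1 without p300KO_TET2KO replicate 2, 0 without p300KO_TET2KO replicate 3, 0 without WT replicate 1 and 0 without WT replicate 2, the calls lower 1 without p300KO_TET2KO replicate 1, 1 without WT replicate 1 and 1 without WT replicate 2, and with a sex covariate the calls were 1 higher and 6 lower.

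**Figure D3:**
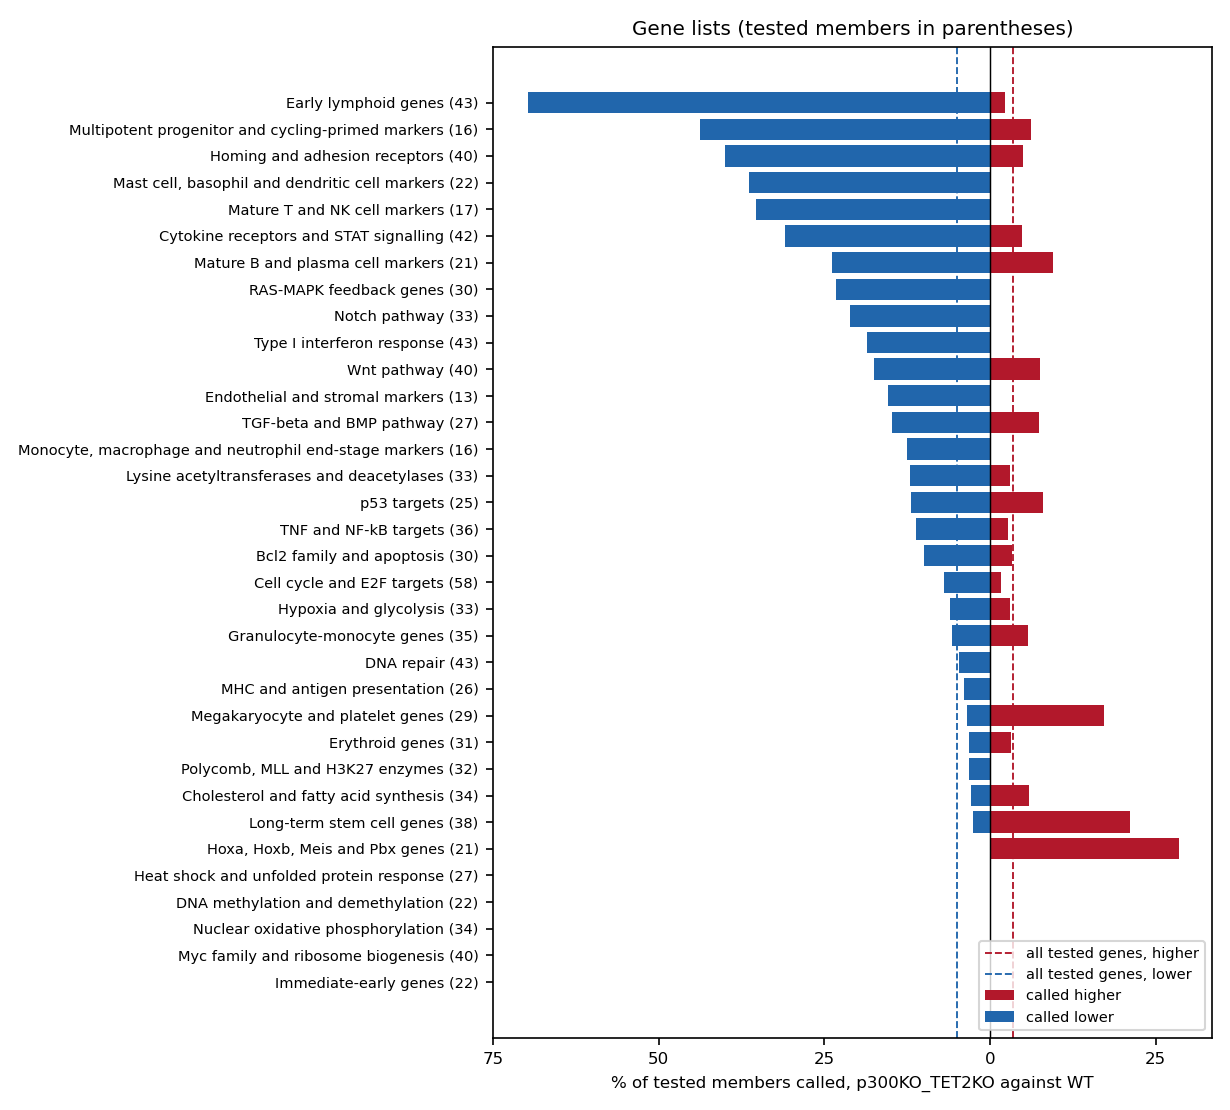
Percentage of tested members called higher and lower between p300KO_TET2KO and WT (horizontal axis) in each gene list except the sex-linked ones (rows). Dashed lines mark the share of all tested genes, 3.51% higher and 4.92% lower, and the early lymphoid list stands out at 69.8% lower.

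Calls among receptors and adhesion molecules were mostly lower. Of 40 homing and adhesion receptors, 2 were called higher and 16 lower (40.0%). Cxcr4, the receptor that retains stem cells in the marrow, was at 84.9, 78.5 and 89.4 CPM in the libraries labelled p300KO_TET2KO, against 133, 208 and 162 CPM in WT (log2FC -0.99, SE 0.13, adjusted p = 5.51e-04). Selplg, the selectin ligand PSGL-1, was at 99.5, 104 and 93.3 CPM in the libraries labelled p300KO_TET2KO, against 164, 163 and 179 CPM in WT (log2FC -0.77, SE 0.10, adjusted p = 4.26e-04), and Alcam, an adhesion molecule of stem cells and niche, at 21.5, 24.3 and 28.2 CPM in the libraries labelled p300KO_TET2KO, against 51.2, 51.3 and 54.2 CPM in WT (log2FC -1.08, SE 0.14, adjusted p = 5.46e-04). None of these 3 genes had overlapping groups. Ccr7, a lymphoid homing receptor, fell too (log2FC -3.46, adjusted p = 1.90e-04). Cytokine receptors and STAT signalling genes had 2 higher (4.76%) and 13 lower (31%) of 42 tested members. Il18rap, a subunit of the interleukin-18 receptor, was at 34, 26 and 32.2 CPM in the libraries labelled p300KO_TET2KO, against 133, 135 and 129.6 CPM in WT (log2FC -2.12, SE 0.26, adjusted p = 3.96e-04), and its partner Il18r1 at 3.34, 1.34 and 2.74 CPM in the libraries labelled p300KO_TET2KO, against 15.9, 22 and 18.6 CPM in WT (log2FC -2.98, SE 0.47, adjusted p = 0.00164). Both subunits lay below WT in every library. Il31ra, the interleukin-31 receptor, had the lowest value of the list (log2FC -3.48, adjusted p = 2.88e-04), and both chains of the interleukin-10 receptor fell, Il10ra (log2FC -1.19, adjusted p = 5.74e-04) and Il10rb (log2FC -0.66, adjusted p = 5.63e-04).

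In the signalling lists, receptors, effectors and feedback genes were among the calls lower. The Notch list had 0 higher (0%) and 7 lower (21.2%) of 33 tested members, and the calls lower numbered 4 without p300KO_TET2KO replicate 1 and 4 without p300KO_TET2KO replicate 3. After the receptor Notch1, the ligand Jag2 was at 3.65, 6.47 and 4.21 CPM in the libraries labelled p300KO_TET2KO, against 16.8, 15.7 and 17.5 CPM in WT (log2FC -1.78, SE 0.30, adjusted p = 0.00256), the feedback gene Nrarp at 3.5, 4.61 and 3.72 CPM in the libraries labelled p300KO_TET2KO, against 8.61, 8.71 and 8.48 CPM in WT (log2FC -1.12, SE 0.21, adjusted p = 0.00553) and Numbl, a relative of the Notch inhibitor Numb, at 3.6, 4.68 and 4.41 CPM in the libraries labelled p300KO_TET2KO, against 13.1, 11.8 and 11.8 CPM in WT (log2FC -1.52, SE 0.31, adjusted p = 0.00809). The groups did not overlap for any of these genes. The Wnt list had 3 higher (7.5%) and 7 lower (17.5%) of 40 tested members. Its effectors Tcf7 and Lef1 (log2FC -4.55, adjusted p = 0.00195), the corepressor Tle3 (log2FC -1.09, adjusted p = 6.80e-05) and the pathway inhibitor Apcdd1, at 0.94, 0.561 and 0.695 CPM in the libraries labelled p300KO_TET2KO, against 10.8, 8.13 and 13.1 CPM in WT (log2FC -3.91, SE 0.31, adjusted p = 1.66e-05), fell. The receptor Fzd8 rose, at 7.41, 11.8 and 10.5 CPM in the libraries labelled p300KO_TET2KO, against 2.17, 2.57 and 3.12 CPM in WT (log2FC 1.94, SE 0.25, adjusted p = 4.39e-04). Calls higher in the Wnt list numbered 1 without p300KO_TET2KO replicate 3, 1 without WT replicate 1, 1 without WT replicate 2 and 1 without WT replicate 3. In the RAS-MAPK feedback list there were 0 higher (0%) and 7 lower (23.3%) of 30 tested members, and the calls lower numbered 4 without p300KO_TET2KO replicate 1 and 4 without p300KO_TET2KO replicate 3. Dusp6, a phosphatase of ERK, was at 28.2, 34.6 and 30.2 CPM in the libraries labelled p300KO_TET2KO, against 81.4, 79.9 and 113 CPM in WT (log2FC -1.56, SE 0.13, adjusted p = 3.63e-05). Dusp5, its nuclear relative, was at 12.6, 15.2 and 13 CPM in the libraries labelled p300KO_TET2KO, against 92.7, 90.8 and 119 CPM in WT (log2FC -2.88, SE 0.35, adjusted p = 3.81e-04). Both phosphatase genes were below WT in every library. Of 22 immediate-early genes, edgeR, DESeq2 and limma-voom each called 0, and 2 had an unadjusted p under 0.05 in edgeR.

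TNF and NF-kB targets had 1 higher (2.78%) and 4 lower (11.1%) of 36 tested members, with the cytokine Tnf at 4.07, 4.82 and 4.05 CPM in the libraries labelled p300KO_TET2KO, against 9.28, 10.3 and 17 CPM in WT (log2FC -1.48, SE 0.22, adjusted p = 0.00125) and the activation marker Cd69 at 32, 49.5 and 49.1 CPM in the libraries labelled p300KO_TET2KO, against 99.6, 146 and 165 CPM in WT (log2FC -1.64, SE 0.27, adjusted p = 0.00253). In the TGF-beta and BMP list there were 2 higher (7.41%) and 4 lower (14.8%) of 27 tested members. The BMP receptor Bmpr1a rose, at 3.45, 1.96 and 4.7 CPM in the libraries labelled p300KO_TET2KO, against 0.716, 0.304 and 0.279 CPM in WT (log2FC 2.83, SE 0.47, adjusted p = 0.00227), and the helix-loop-helix inhibitor Id2 fell (log2FC -1.36, adjusted p = 0.00610). Calls lower in this list numbered 1 without p300KO_TET2KO replicate 1, 2 without p300KO_TET2KO replicate 2, 1 without p300KO_TET2KO replicate 3, 2 without WT replicate 1 and 1 without WT replicate 3, and with a sex covariate the calls were 4 higher and 1 lower. Type I interferon response genes had 0 higher (0%) and 8 lower (18.6%) of 43 tested members. Mx1, an antiviral GTPase, was at 1.78, 1.57 and 1.88 CPM in the libraries labelled p300KO_TET2KO, against 6.82, 9.07 and 4.57 CPM in WT, without overlap (log2FC -1.99, SE 0.45, adjusted p = 0.0153), and the call was lost without p300KO_TET2KO replicate 2 or 3 or WT replicate 2 (adjusted p up to 0.0640). Irf9, the DNA-binding subunit of the interferon-stimulated factor, was at 55, 72.2 and 73.3 CPM in the libraries labelled p300KO_TET2KO, against 96.1, 121 and 89 CPM in WT (log2FC -0.61, SE 0.14, adjusted p = 0.0197), and the call was lost without p300KO_TET2KO replicate 1 or WT replicate 2 (adjusted p up to 0.0933). WT replicate 2 held the most RNA of both genes, and the interferon calls numbered 1 without p300KO_TET2KO replicate 1, 1 without p300KO_TET2KO replicate 2, 2 without p300KO_TET2KO replicate 3, 2 without WT replicate 1 and 0 without WT replicate 2. None of the 8 called members was called in either single knockout, as was the case for 879 of all 1504 called genes. The median log2FC of the list was -0.33 in p300KO_TET2KO, -0.28 in P300KO and 0.04 in TET2KO. Without 1 library the calls higher numbered as few as 0 in the homing, cytokine receptor and TNF lists (2, 2 and 1 with all libraries) and 1 in the TGF-beta list (2 with all), whereas Bmpr1a and Fzd8 kept their calls without any 1 library.

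Calls in the lists of survival, cell cycle and chromatin were few in number, although some shares were above those of all genes (3.51% higher, 4.92% lower). The Bcl2 family and apoptosis list had 1 higher (3.33%) and 3 lower (10%) of 30 tested members. The p53 target list had 2 higher (8%) and 3 lower (12%) of 25 tested members. Bcl2, which blocks apoptosis, was at 107, 86.1 and 95.2 CPM in the libraries labelled p300KO_TET2KO, against 222, 219.6 and 211 CPM in WT (log2FC -1.18, SE 0.12, adjusted p = 7.79e-05), and the death ligand Tnfsf10 at 40.3, 37.9 and 40.8 CPM in the libraries labelled p300KO_TET2KO, against 75.8, 72.9 and 59.8 CPM in WT (log2FC -0.81, SE 0.11, adjusted p = 5.44e-04). Cdkn1a, which encodes the cell cycle inhibitor p21, was at 2.98, 9.75 and 8.46 CPM in the libraries labelled p300KO_TET2KO, against 30.7, 35.7 and 59.8 CPM in WT (log2FC -2.53, SE 0.38, adjusted p = 0.00121). Cdkn2c, the inhibitor p18, rose instead, at 40.6, 60.9 and 48.9 CPM in the libraries labelled p300KO_TET2KO, against 20.6, 23.2 and 32.3 CPM in WT (log2FC 0.996, SE 0.18, adjusted p = 0.00496). The groups were apart for all 4 genes. Other p53 targets went both ways, with Perp, a desmosomal apoptosis effector (log2FC 1.84, adjusted p = 2.85e-04), and the stress sensor Sesn2 (log2FC 1.26, adjusted p = 0.00331) higher and Phlda3, an inhibitor of Akt (log2FC -1.23, adjusted p = 0.00454), lower. Cdk6, the kinase of stem cell cycle entry, was at 1268, 1011 and 1089 CPM in the libraries labelled p300KO_TET2KO, against 1938, 1707 and 1556 CPM in WT (log2FC -0.63, SE 0.12, adjusted p = 0.00646). Among 58 cell cycle genes 1 was called higher (1.72%) and 4 lower (6.9%). Of 33 acetyltransferase and deacetylase genes, 1 was called higher and 4 lower (3.03% and 12.1%). The deacetylase genes Hdac9 (log2FC -1.42, adjusted p = 5.63e-04), Hdac1 (log2FC -0.77, adjusted p = 0.00856) and Hdac7 (log2FC -0.53, adjusted p = 0.00544) fell, and Hdac6 (log2FC 0.32, adjusted p = 0.0263) was the 1 called higher. The list had 0 calls higher without any 1 library other than p300KO_TET2KO replicate 3. Of the Polycomb, MLL and H3K27 enzyme genes only Cbx2, a Polycomb chromodomain protein, was called of 32 tested (log2FC -0.75, adjusted p = 0.00439). The lists of Myc and ribosome biogenesis (40 genes), nuclear oxidative phosphorylation (34), DNA methylation and demethylation (22) and heat shock and unfolded protein response (27) held 0 called genes in edgeR, DESeq2 and limma-voom. At an unadjusted p under 0.05, edgeR gave 3 genes of the DNA methylation list and 2 of each of the others. The Tet2 relatives Tet1 (log2FC -0.25, adjusted p = 0.376) and Tet3 (log2FC 0.05, adjusted p = 0.828) did not pass the test.

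Of the genes with the highest values that were named, both described first have near-identical copies, for which the split of reads is uncertain. Tpm3-rs7, a processed copy of the tropomyosin gene Tpm3, was at 256, 120.1 and 164 CPM in the libraries labelled p300KO_TET2KO, 3.71, 2.89 and 4.53 CPM in P300KO, 159, 131 and 121 CPM in TET2KO and 3.88, 4.12 and 4.13 CPM in WT (log2FC 5.48, SE 0.28, adjusted p = 3.03e-07). Cwc22, a splicing factor gene, was at 406, 649.5 and 453 CPM in the libraries labelled p300KO_TET2KO, 62.6, 52.1 and 64.8 CPM in P300KO, 364, 101 and 702 CPM in TET2KO and 64.7, 56.8 and 56.5 CPM in WT (log2FC 3.08, SE 0.49, adjusted p = 0.00180). For both, every library labelled p300KO_TET2KO and TET2KO stood above every P300KO and WT library. Among other genes with high values, Fhdc1, a formin-related microtubule regulator on chromosome 3, was at 11.8, 13.1 and 12.3 CPM in the libraries labelled p300KO_TET2KO, against 1.82, 2.05 and 2.57 CPM in WT (log2FC 2.55, SE 0.24, adjusted p = 7.39e-05), and was called in both single knockouts with log2 fold changes of 1.77 for P300KO (adjusted p = 0.00184) and 1.98 for TET2KO (adjusted p = 0.00154). Npdc1, a neural differentiation gene, was at 14.8, 27.4 and 19.6 CPM in the libraries labelled p300KO_TET2KO, against 3.96, 2.77 and 7.31 CPM in WT (log2FC 2.18, SE 0.33, adjusted p = 0.00134), and Shtn1, a regulator of axon outgrowth, at 9.66, 11.8 and 10.2 CPM in the libraries labelled p300KO_TET2KO, against 2.47, 2.54 and 3.85 CPM in WT (log2FC 1.86, SE 0.21, adjusted p = 2.51e-04). Tcaf1, a TRP channel-associated factor, was at 11.9, 13.8 and 15 CPM in the libraries labelled p300KO_TET2KO, against 4.01, 3.9 and 4.18 CPM in WT (log2FC 1.75, SE 0.16, adjusted p = 7.23e-05). The rule that named these genes required groups that do not overlap. At the low end, outside the lymphoid genes named above, Ddx4, a germ line RNA helicase, was at 0.679, 0.576 and 0.695 CPM in the libraries labelled p300KO_TET2KO, against 11.7, 14 and 14.6 CPM in WT (log2FC -4.39, SE 0.31, adjusted p = 6.00e-06), and Arpp21, a phosphoprotein of lymphoid progenitors and neurons, at 0.888, 3.06 and 3.56 CPM in the libraries labelled p300KO_TET2KO, against 53.7, 63.8 and 36.8 CPM in WT (log2FC -4.31, SE 0.54, adjusted p = 4.39e-04). Cecr2, a chromatin remodelling factor, was at 0.365, 1.52 and 0.899 CPM in the libraries labelled p300KO_TET2KO, against 26.3, 16.6 and 9.09 CPM in WT (log2FC -4.11, SE 0.72, adjusted p = 0.00336).

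Against WT, P300KO had 698 called genes (3.91%) and TET2KO 113 (0.633%), and the 3 comparisons share the WT libraries. Of the 1504 genes called in p300KO_TET2KO, 526 were called in P300KO as well, 71 in TET2KO as well, 28 in both and 879 in neither (4.93% of all tested). The 879 comprise 415 genes higher and 464 lower, and the count was 487 without p300KO_TET2KO replicate 3, 384 on libraries without Xist RNA and 922 without TET2KO replicate 1. A gene that misses the threshold in a single knockout need not have a value near 0 there. For the 415 genes higher, the median log2 fold change was 1.04 in p300KO_TET2KO, 0.46 in P300KO and 0.42 in TET2KO, and the median of the sum of both single values was 0.91. For the 464 lower, it was -0.96 in p300KO_TET2KO, -0.44 in P300KO and -0.27 in TET2KO, with a median sum of -0.73. The P300KO adjusted p of 204 of the 879 genes lay between 0.05 and 0.10, and 195 had an unadjusted p of 0.05 or more in both single knockouts. Their median level was 10.0 CPM, against 15.2 CPM for all tested genes.

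Departure from the sum of both single knockouts was tested directly, as the interaction on the log2 scale. It gave 0 called genes (0%) in edgeR, with 1268 genes at an unadjusted p under 0.05 (7.11%) and a lowest adjusted p of 0.384. DESeq2 called 51 and limma-voom 0. Within the 879 genes, 90 had an unadjusted interaction p under 0.05. These genes were selected on contrasts of the same group means, so this count cannot be set against the share of all genes. The interaction of 1 gene alone has the error of 4 group means, and an adjusted p above the threshold does not show that values add up. The smallest interaction p-values under the filter on names belonged to genes that mostly stood apart in a single knockout. Pld4, an endolysosomal exonuclease, was at 11.2, 12.6 and 14.7 CPM in the libraries labelled p300KO_TET2KO, 12.2, 12.8 and 18.7 CPM in P300KO, 27.8, 34.9 and 34.9 CPM in TET2KO and 10.4, 11.1 and 14 CPM in WT (interaction -1.64, SE 0.26, adjusted p = 0.384), with only TET2KO high. Ccl9, a chemokine, was at 43.7, 41.9 and 45.6 CPM in the libraries labelled p300KO_TET2KO, 61.2, 65.6 and 76.7 CPM in P300KO, 118, 67.8 and 97.9 CPM in TET2KO and 55.5, 54.3 and 64.2 CPM in WT (interaction -1.34, SE 0.23, adjusted p = 0.384), and Hvcn1, a proton channel, at 25.9, 33.7 and 32.5 CPM in the libraries labelled p300KO_TET2KO, 49.1, 39.9 and 49.2 CPM in P300KO, 35.5, 26 and 34.9 CPM in TET2KO and 18.7, 22.8 and 23.1 CPM in WT (interaction -1.16, SE 0.21, adjusted p = 0.396). For both, every library labelled p300KO_TET2KO had less RNA than every P300KO library. Tet2 itself was in this set (interaction 1.08, SE 0.22, adjusted p = 0.491).

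Among genes called in p300KO_TET2KO and in neither single knockout, Slc6a15, a neutral amino acid transporter, was among those higher. It was at 17, 16.5 and 16.3 CPM in the libraries labelled p300KO_TET2KO, 6.19, 6.41 and 6.34 CPM in P300KO, 8.39, 5.8 and 7.22 CPM in TET2KO and 5.17, 3.21 and 4.18 CPM in WT, with log2 fold changes of 1.98 for p300KO_TET2KO, 0.59 for P300KO and 0.76 for TET2KO (SE 0.19 and adjusted p = 7.79e-05 for p300KO_TET2KO). Its 3 libraries stood above all WT libraries and close to each other. Nbea, a vesicle trafficking scaffold, was at 23.2, 21 and 26.8 CPM in the libraries labelled p300KO_TET2KO, 10.4, 7.7 and 9.2 CPM in P300KO, 15.2, 15.7 and 14.8 CPM in TET2KO and 10.8, 7.91 and 6.75 CPM in WT, with log2 fold changes of 1.46 for p300KO_TET2KO, 0.08 for P300KO and 0.83 for TET2KO. Slc16a12, a creatine transporter, was at 11.9, 5.72 and 11.7 CPM in the libraries labelled p300KO_TET2KO, 3.56, 1.85 and 5.88 CPM in P300KO, 8.5, 3.44 and 4.52 CPM in TET2KO and 2.22, 1.71 and 2.17 CPM in WT, with 2.25 for p300KO_TET2KO, 0.86 for P300KO and 1.43 for TET2KO. In both single knockouts the mean of Slc16a12 lay between those of p300KO_TET2KO and WT, and P300KO replicate 2 was within the range of WT. Spo11, the meiotic double-strand break enzyme (1.41 for p300KO_TET2KO, 0.97 for P300KO and 1.03 for TET2KO), Trim2, a ubiquitin ligase (1.40 for p300KO_TET2KO, 0.83 for P300KO and 0.49 for TET2KO), and Catsperg1, a sperm cation channel subunit (1.58 for p300KO_TET2KO, 0.49 for P300KO and 1.42 for TET2KO), held between 7.26 and 12.6 CPM in the libraries labelled p300KO_TET2KO. The TET2KO value of Catsperg1 came close to that of p300KO_TET2KO. The naming rule also gave Gda (1.63 for p300KO_TET2KO), Lyplal1 (1.57) and Phldb2 (1.48), which were less stable. Their calls were lost in 4, 4 and 5 of the 6 fits that left out 1 library (adjusted p up to 0.107, 0.101 and 0.102).

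Among those lower, Emp1, an epithelial membrane protein, was at 2.82, 5.24 and 6.82 CPM in the libraries labelled p300KO_TET2KO, 20.6, 27.5 and 25.2 CPM in P300KO, 21.4, 24.7 and 5.98 CPM in TET2KO and 39.2, 44.6 and 84.8 CPM in WT, with log2 fold changes of -3.48 for p300KO_TET2KO, -1.19 for P300KO and -1.67 for TET2KO (SE 0.48 and adjusted p = 6.96e-04 for p300KO_TET2KO). Its P300KO libraries lay between those of p300KO_TET2KO and WT, and TET2KO replicate 3 was within the range of p300KO_TET2KO. Gfra1, a receptor of glial cell line-derived neurotrophic factor, had -3.06 for p300KO_TET2KO, -2.10 for P300KO and -0.14 for TET2KO, and Atp1b1, the sodium pump beta subunit, -2.57 for p300KO_TET2KO, -1.12 for P300KO and -1.04 for TET2KO. Il18r1, described above, had -2.98 for p300KO_TET2KO, -0.92 for P300KO and -0.81 for TET2KO, and Mcpt8 -2.53 for p300KO_TET2KO, -1.09 for P300KO and -0.55 for TET2KO. The naming rule also gave Igll1 (-3.36 for p300KO_TET2KO), Atp1b2 (-3.02) and Hist2h2aa2 (-2.55), which were less stable. Their calls were lost in 5, 4 and 2 of the 6 fits that left out 1 library (adjusted p up to 0.136, 0.113 and 0.0858). Gfi1, described above, had -1.07 for p300KO_TET2KO, -0.12 for P300KO and -0.12 for TET2KO. For the activation marker Cd69 the values were -1.64 for p300KO_TET2KO, -0.33 for P300KO and -0.09 for TET2KO, and for the chemokine Ccl3, at 6.005, 9.76 and 9.4 CPM in the libraries labelled p300KO_TET2KO, against 25.2, 38.5 and 79 CPM in WT, they were -2.47 for p300KO_TET2KO, -0.16 for P300KO and -0.60 for TET2KO, and the call was lost without p300KO_TET2KO replicate 1 (adjusted p = 0.0505). The histone gene Hist1h4m, which has near-identical copies, had the lowest value (-5.61 for p300KO_TET2KO, 1.18 for P300KO and -6.14 for TET2KO), but its WT libraries alone ran from 5.74 to 122 CPM and the call was lost without p300KO_TET2KO replicate 1, 2 or 3 or WT replicate 1 or 2 (adjusted p up to 0.126).

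**Figure D4:**
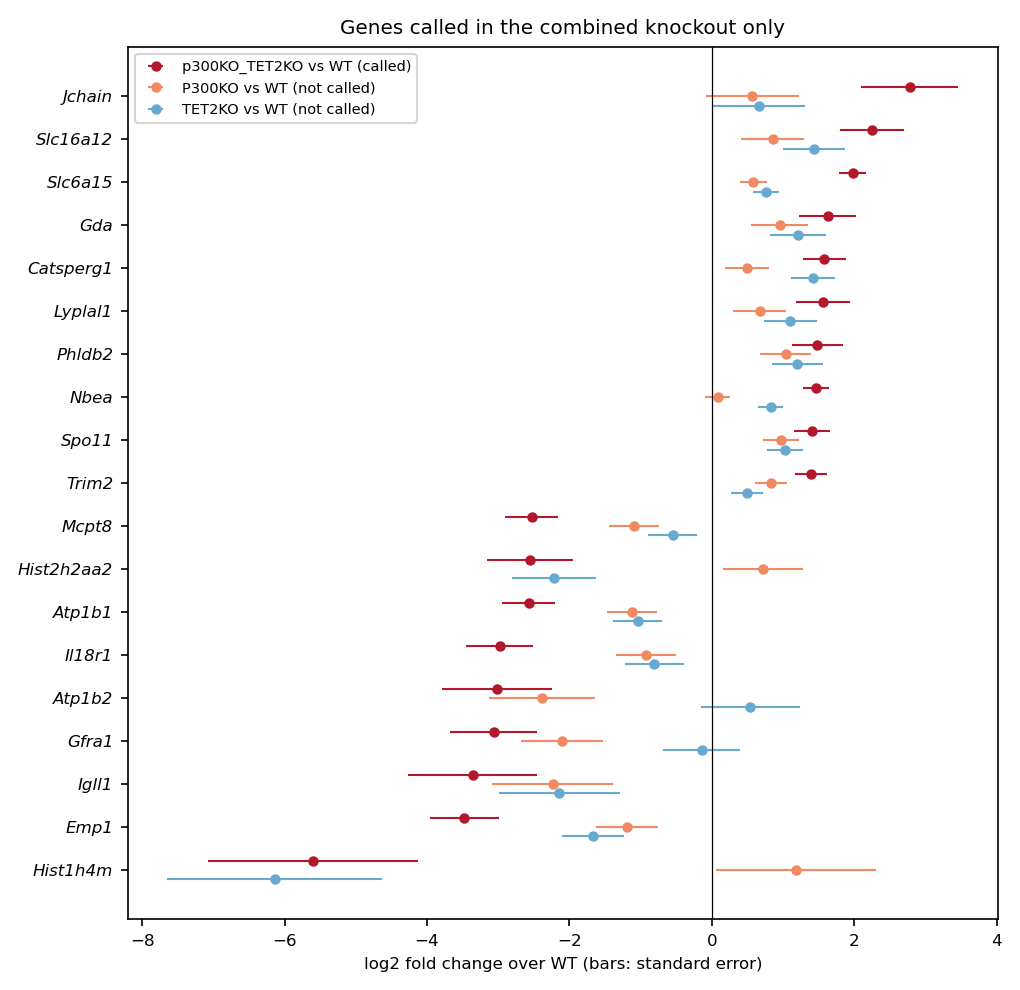
Log2 fold change over WT with its standard error (horizontal axis) of 19 genes called in p300KO_TET2KO and in neither single knockout (rows), for p300KO_TET2KO, P300KO and TET2KO. For Slc6a15 the values are 1.98 for p300KO_TET2KO, 0.59 for P300KO and 0.76 for TET2KO.

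Genes next to the thresholds were picked for an adjusted p closest to 0.05 on either side. Just inside the threshold of p300KO_TET2KO against WT were Spocd1 (adjusted p = 0.04996) and Cfp (adjusted p = 0.0499), and just outside Mum1 (0.0503) and Tmem181a (0.0503). In P300KO, Prx had an adjusted p of 0.0502 and counts among the 879, while Zbed4 had 0.0497 and does not. In TET2KO the deacetylase gene Hdac1 had 0.0522 and counts among them, with log2 fold changes of -0.77 for p300KO_TET2KO, 0.04 for P300KO and -0.76 for TET2KO, and Lrrc16a had 0.0479 and does not. For Spocd1 the call was lost without p300KO_TET2KO replicate 2 or 3 or WT replicate 1, 2 or 3 (adjusted p up to 0.230), for Cfp the call was lost without any 1 library (adjusted p up to 0.170), and for Prx the call was lost without p300KO_TET2KO replicate 2 or 3 or WT replicate 1, 2 or 3 (adjusted p up to 0.144).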

How the data were processed

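RNA was sequenced from sorted LSK cells of 12 libraries, 3 per group, after ribosomal RNA depletion, as paired-end reads. The authors deposited 1 table of expected counts for 46517 genes, made with STAR 2.6.0c and RSEM 1.3.0 on mm10 by the submitters' processing notes and the study's methods, without normalization. The Gencode release is not given in the sources used here. The study tested with DESeq2 after a spike-in correction. The table holds 0 spike-in genes, so edgeR 4.0.16 was used in R 4.3.3 instead.

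Expected counts were rounded to whole numbers. Genes were filtered with filterByExpr, libraries scaled by TMM, and all 12 libraries entered 1 quasi-likelihood fit with a mean per group. Tests are two-sided, with Benjamini-Hochberg adjustment over all tested genes of a contrast. The standard error is the absolute log2 fold change over the square root of F. No exact permutation test of 3 against 3 libraries can go below p = 0.1. Between 18773903 and 79573664 counts per library were available, and no libraries were duplicates. Coordinates are those of Gencode vM21 on mm10, which matched 17743 tested genes (99 did not match). Promoter windows are from RefSeq.

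Genes and the 36 lists were chosen with earlier results of these data known, and lists are described by counts and medians with no test of their own. Named are Ep300, Crebbp, Tet2, Myb, Dntt, Notch1 and the Hoxb genes, the 12 highest and 12 lowest called autosomal genes of at least 5 CPM whose groups do not overlap, 10 and 10 by the same filter among those called in neither single knockout, up to 4 called members per list by smallest p, 6 genes by smallest interaction p, and threshold neighbours. Unnamed, pseudogene and receptor segment symbols were left out, and 1 gene that the rule names is not reported here. Chosen after their values were seen were Igkc, Ikzf1, Bcl11a, Prdm1, Cxcr4, Lef1, Neo1, Prss34, Ms4a2, Hdac6, Selp, Gp5, Cisd2, Rpl34 and Tmod4, the use of Gfi1, Cd69 and Ccl3 as examples of the 879 genes, and the uncalled genes Procr, Hlf, Spi1, Cebpa, Mpo, Tet1 and Tet3.

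Alternatives were DESeq2 1.42.0 size factors and Wald test, limma 3.58.1 voom, 2 other filters, the 6 libraries alone, a replicate block, a sex covariate, libraries with Y-linked and no Xist RNA, no X or Y genes, and leaving out each of the 6 libraries. Leaving out TET2KO replicate 1 was added after seeing the data. The models were tested on simulated counts. Figures used Python 3.11.15 and matplotlib 3.10.9.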

Additional observations from a re-analysis of the deposited data

How the results depend on the processing

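No named gene reversed under any alternative run, and 0 called genes had the opposite sign. In 3 lists with few calls the balance of higher and lower calls turned. The TGF-beta and BMP list, with 2 higher and 4 lower, had 4 and 1 with the sex covariate, 2 and 1 without p300KO_TET2KO replicate 1 or 3, and 1 and 0 on libraries with Y-linked and no Xist RNA. The cholesterol and fatty acid list, with 2 higher and 1 lower, had 1 and 4 with the sex covariate, 1 and 3 without p300KO_TET2KO replicate 2, 2 and 3 in DESeq2's Wald test and on the 6 libraries alone, and 1 and 2 with no filter and without TET2KO replicate 1. The p53 list, with 2 higher and 3 lower, had 4 and 3 in DESeq2's Wald test and 2 and 0 on libraries with Y-linked and no Xist RNA. Of 140 named called genes, 102 kept their call whichever 1 of the 6 libraries was left out, 38 lost it for at least 1, and 74 were called under every alternative. Without 1 of the 6 libraries, 314 to 536 genes were higher, 553 to 718 lower, 487 to 646 called in neither single knockout, and 0 to 14 called for the interaction (14 without WT replicate 3). Without TET2KO replicate 1 they were 603, 869, 922 and 0. On libraries with Y-linked and no Xist RNA, where a lone library is assumed to vary like the other groups, the counts were 256, 377, 384 and 10, and 61 of the named calls were lost. Fewer libraries enter that fit. With the sex covariate, 20 were lost. DESeq2's Wald test called 51 genes for the interaction, and the fit with no filter 2. Whether the replicate numbers pair the libraries cannot be decided from deviations around means of 3 libraries. Such deviations had correlations of 0.06, -0.14 and -0.06 between same-numbered libraries of p300KO_TET2KO and WT. Between differently numbered ones they ran from -0.09 to 0.13. With the replicate block, 541 genes were higher, 808 lower, 751 called in neither single knockout and 2 for the interaction. Of the 879 genes called in neither single knockout, 360 to 488 were in the same set without 1 library, 467 with the sex covariate and 158 on libraries without Xist RNA. The causes were not tested. With 3 libraries per group, small changes of genes at a few CPM are the least certain.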

Other observations

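The hypoxia and cholesterol lists had shares of called genes near those of all genes (3.51% higher and 4.92% lower). Hypoxia and glycolysis had 1 higher (3.03%) and 2 lower (6.06%) of 33 tested members, and cholesterol and fatty acid synthesis 2 higher (5.88%) and 1 lower (2.94%) of 34 tested members. Whichever 1 of the 6 libraries was left out, the hypoxia list held 0 calls higher and the cholesterol list 1. Egln3, an oxygen-sensing prolyl hydroxylase, was at 20.8, 14.9 and 19 CPM in the libraries labelled p300KO_TET2KO, against 46.4, 45.8 and 45.5 CPM in WT, without overlap (log2FC -1.34, SE 0.11, adjusted p = 3.08e-05). Egln1, its main relative, was at 38.6, 43.7 and 38.8 CPM in the libraries labelled p300KO_TET2KO, against 64.9, 64.1 and 64.6 CPM in WT (log2FC -0.67, SE 0.08, adjusted p = 4.25e-04). In the single knockouts the log2 fold changes of Egln3 were -1.13 for P300KO (adjusted p = 2.30e-04) and -0.09 for TET2KO (adjusted p = 0.773). Cyp27a1, the sterol 27-hydroxylase, was at 8.88, 13.4 and 12.7 CPM in the libraries labelled p300KO_TET2KO, against 4.57, 4.01 and 3.79 CPM in WT (log2FC 1.497, SE 0.27, adjusted p = 0.00384). The repair genes Xpc, which recognises bulky DNA lesions (log2FC -0.76, adjusted p = 6.15e-04), and Xrcc6, the Ku70 subunit of end joining (log2FC -0.69, adjusted p = 0.00158), were the 2 called of 43 DNA repair genes. H2-Ob, a subunit of the class II peptide-loading inhibitor, was the 1 called of 26 antigen presentation genes, at 39.4, 58.1 and 44.6 CPM in the libraries labelled p300KO_TET2KO, against 92.1, 102 and 107 CPM in WT (log2FC -1.08, SE 0.22, adjusted p = 0.00770).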
